A study of Danio rerio with 6 samples.

Results

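A set of 7 genes that act in the anterior neural plate and the eye field of the zebrafish (*Danio rerio*) embryo is described here, chosen by gene identifier from 32266 genes with their levels in these libraries already known. They are *rx3* (ENSDARG00000052893), *six7* (ENSDARG00000070107), *otx2a* (ENSDARG00000030703), *OTX1* (ENSDARG00000094992), *shisa2a* (ENSDARG00000034138), *FZD8* (ENSDARG00000038569) and *TCF7L1* (ENSDARG00000038159), spelled as in the annotation used, which gives some zebrafish genes the symbol of their human counterpart. All 7 passed the filter on low values, as 3905 genes did. The question put to them was which were lower to the same degree when activated β-catenin was present in scattered cells and when it was present throughout the embryo, and which were lower in only 1 of these settings.

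RNA was sequenced from sorted cells of early embryos of the AB strain, labelled as 9 h post fertilization, in 3 groups of 2 libraries each (lot 1 and lot 2). ‘Mosaic’ cells were GFP+ cells of wild-type embryos injected with a plasmid in which the *hsp70l* heat-shock promoter drives GFP together with β-catCA, a constitutively active β-catenin. ‘Ubiquitous’ cells were GFP+ cells of embryos transgenic for the same kind of heat-shock construct, and ‘Uninjected’ cells came from embryos without β-catCA. The methods give a slightly earlier stage than the labels and do not say whether ‘Uninjected’ embryos were heat shocked. They describe no sequenced group that was injected without β-catCA. Injection, heat shock, GFP with the sort for it and β-catCA thus cannot be told apart between ‘Mosaic’ and ‘Uninjected’ cells. Heat shock, GFP with the sort for it and β-catCA cannot be told apart between ‘Ubiquitous’ and ‘Uninjected’ cells either. ‘Mosaic’ and ‘Ubiquitous’ cells differed in plasmid injection against a transgenic line, and the methods call transgene copy number hard to control in mosaic embryos. Between these groups, the setting of the cells, the way β-catCA was introduced and its copy number therefore cannot be told apart. Embryos were pooled within a group and nothing says that the lots were separate pools, so the error of each comparison is the spread between these libraries, which may be technical. Each library holds all cell types that passed the sort, and fewer anterior neural cells and less RNA per cell cannot be told apart.

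In vertebrate embryos, Wnt/β-catenin signalling is high posteriorly and low anteriorly, and the forebrain and eyes form where it is kept low. Wnt ligands bind Frizzled receptors at the cell surface, which stabilizes β-catenin and lets it enter the nucleus, where TCF/LEF proteins bring it to DNA. Without β-catenin, TCF7L1 acts mainly as a repressor of Wnt target genes, and loss of TCF7L1 function in zebrafish reduces the forebrain and eyes. Within the anterior neural plate, Otx transcription factors mark the future forebrain and midbrain, and the eye field inside that territory expresses homeobox factors of the Rx and sine oculis families.

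The deposited values are regularized logarithms (rlog) on a log2 scale, which adjust counts for library depth and pull each value to the average of its gene, most of all in shallow libraries. Counts were therefore also inferred by inverting this transformation. Inferred totals were 58352 and 489312 counts in ‘Uninjected’, 217242 and 240220 in ‘Mosaic’, and 345590 and 34540 in ‘Ubiquitous’ cells, so ‘Ubiquitous’ lot 2 and ‘Uninjected’ lot 1 were shallow. In ‘Ubiquitous’ lot 2, 14.4% of the tested genes had no count, and 3 counts amount to 8.69 per 100000, above several of the levels given below. The β-catenin gene *CTNNB1* (ENSDARG00000014571) stood at 173 and 125 counts per 100000 in ‘Uninjected’, 197 and 201 in ‘Mosaic’, and 152 and 130 in ‘Ubiquitous’ cells, and its difference passed in none of the 3 comparisons. The methods describe β-catCA as a truncated mouse protein, and tags from the 3′ end need not cover the transgene. This level therefore checks nothing about β-catCA. Early neural plate genes were detected in all libraries, with a summed level of 211 to 442 counts per 100000. Whether this sum follows the share of neural cells was not tested.

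All 7 genes were lower in both ‘Mosaic’ libraries than in both ‘Uninjected’ libraries, by 1.24 (*TCF7L1*) to 2.69 (*rx3*) on the rlog scale. *rx3*, *six7*, *otx2a*, *OTX1* and *shisa2a* were also lower in both ‘Ubiquitous’ libraries, by 1.15 (*shisa2a*) to 2.45 (*rx3* and *six7*). *TCF7L1* also lay below both ‘Uninjected’ libraries there, with a difference of −0.83 that did not pass. *FZD8* stood about as high in ‘Ubiquitous’ as in ‘Uninjected’ cells on this scale with all 6 libraries. Of all genes tested, 19.9% lay below both ‘Uninjected’ libraries in both ‘Mosaic’ libraries, and 19.6% did so in both ‘Ubiquitous’ libraries. Summed over the 7 genes, the level was 270.8 and 332.1 counts per 100000 in ‘Uninjected’, 47.4 and 65.8 in ‘Mosaic’, and 88.8 and 127.4 in ‘Ubiquitous’ cells. Of these sums, *FZD8* alone made up 34.3 and 75.2, 11.0 and 19.1, and 38.2 and 69.5 in the same order.

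**Figure D1:**
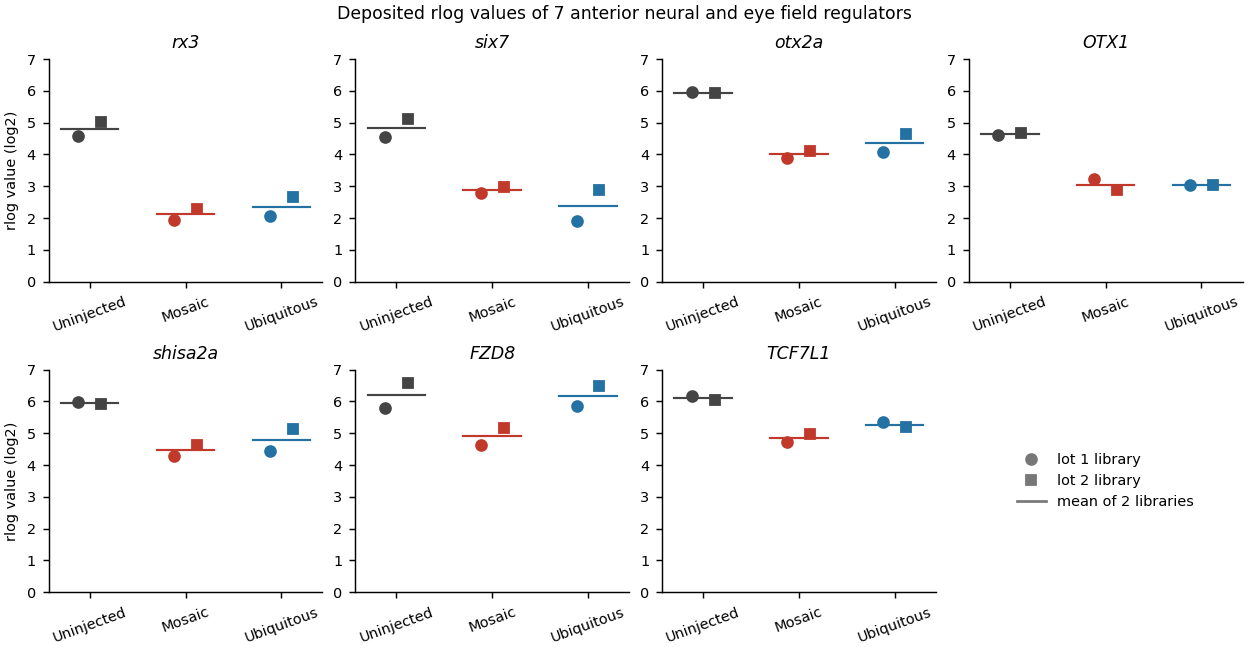
Deposited rlog value (log2 scale, vertical axis) of each of the 7 genes in the 2 libraries of the 3 groups, with circles for lot 1, squares for lot 2 and a line at the mean. *rx3*, *six7*, *otx2a*, *OTX1* and *shisa2a* are higher in both ‘Uninjected’ libraries than in the 4 others, *FZD8* is lower in both ‘Mosaic’ libraries (4.64 and 5.17) than in the 4 others, and *TCF7L1* lies in between in ‘Ubiquitous’ cells (5.34 and 5.19).

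*rx3* encodes a retinal homeobox factor without which zebrafish form no eyes. Its rlog values were 4.59 and 5.03 in ‘Uninjected’, 1.94 and 2.29 in ‘Mosaic’, and 2.05 and 2.66 in ‘Ubiquitous’ cells. The inferred counts behind them were 17 and 191 in ‘Uninjected’, 0 and 3 in ‘Mosaic’, and 3 and 0 in ‘Ubiquitous’ libraries. Both groups with β-catCA thus held *rx3* at the edge of detection, and the ‘Uninjected’ libraries held it at 29.1 and 39.0 counts per 100000. The group mean was 4.81 ± 0.31 (SD, n = 2) for ‘Uninjected’ cells, 2.12 ± 0.25 (SD, n = 2) for ‘Mosaic’ cells and 2.36 ± 0.43 (SD, n = 2) for ‘Ubiquitous’ cells. The pooled share of counts was 57.9-fold lower in ‘Mosaic’ (95% exact interval 19.5 to 283.1) and 48.1-fold lower in ‘Ubiquitous’ cells (16.2 to 235.3) than in ‘Uninjected’ cells. Without ‘Mosaic’ lot 1, which had no count, the ‘Mosaic’ value was 30.4-fold, and without either of the libraries that held the 3 counts its group had none. These intervals, here and below, cover counting error only. The rlog difference between ‘Mosaic’ and ‘Ubiquitous’ cells was −0.24, with a 95% interval of −0.78 to 0.30.

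*six7* encodes a sine oculis-type homeobox factor expressed in the early eye field. Its rlog values were 4.56 and 5.11 in ‘Uninjected’, 2.80 and 2.98 in ‘Mosaic’, and 1.90 and 2.88 in ‘Ubiquitous’ cells. The counts were 15 and 192 in ‘Uninjected’, 6 and 9 in ‘Mosaic’, and 0 and 0 in ‘Ubiquitous’ libraries. Although its rlog values overlap between ‘Mosaic’ and ‘Ubiquitous’ cells, a count was therefore found in every ‘Mosaic’ library and in no ‘Ubiquitous’ library, and the 2.88 of ‘Ubiquitous’ lot 2 stands for a count of 0. Relative to ‘Uninjected’ cells, the pooled share was 11.5-fold lower in ‘Mosaic’ (6.83 to 21.0). It was 47.9-fold lower in ‘Ubiquitous’ cells, taking 3 counts over the group as the floor. With the same floor, the share was 4.15-fold higher in ‘Mosaic’ than in ‘Ubiquitous’ cells. Both floor-based values leave out the counting error of the other group, so they are not exact lower limits. The comparison of ‘Mosaic’ with ‘Ubiquitous’ cells rests on ‘Ubiquitous’ lot 1. There, 0 counts allow up to 0.868 per 100000 against 2.76 and 3.75 in ‘Mosaic’. On the rlog scale the difference between the groups with β-catCA was 0.50 (−0.11 to 1.11) and did not pass. Without the 2 shallow libraries it was 0.99, in a fit in which only ‘Mosaic’ had 2 libraries. In limma's voom test on the inferred counts, with all libraries, the difference was 2.92 and did not pass (adjusted p = 0.138).

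*otx2a* and *OTX1* encode Otx homeobox factors of the forebrain and midbrain territory. The rlog values of *otx2a* were 5.96 and 5.92 in ‘Uninjected’, 3.91 and 4.11 in ‘Mosaic’, and 4.09 and 4.66 in ‘Ubiquitous’ cells. Its counts were 31 and 259, 14 and 20, and 30 and 5 in the same order, so each library had reads of this gene. The pooled share was 7.13-fold lower in ‘Mosaic’ (4.98 to 10.5) and 5.75-fold lower in ‘Ubiquitous’ (4.04 to 8.42) than in ‘Uninjected’ cells. Without ‘Ubiquitous’ lot 1, the latter was 3.66-fold. The 2 ‘Uninjected’ libraries, of unlike depth, held *otx2a* at 53.1 and 52.9 counts per 100000.

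The rlog values of *OTX1* were 4.63 and 4.67 in ‘Uninjected’, 3.22 and 2.88 in ‘Mosaic’, and 3.04 and 3.05 in ‘Ubiquitous’ cells. Its counts were 15 and 124, 10 and 6, and 13 and 0, and the close ‘Ubiquitous’ values therefore stand for 13 counts and for none. The pooled share was 7.26-fold lower in ‘Mosaic’ (4.31 to 13.1) and 7.42-fold lower in ‘Ubiquitous’ cells (4.20 to 14.3). Between ‘Mosaic’ and ‘Ubiquitous’ cells, the rlog difference was −0.36 for *otx2a* (−0.87 to 0.14) and 0.0070 for *OTX1* (−0.47 to 0.49). The intervals reach differences of −0.87 for *otx2a* and 0.49 for *OTX1*, so equal levels are not shown.

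*shisa2a* encodes a Shisa protein, a family that in *Xenopus* retains Frizzled and FGF receptors in the endoplasmic reticulum and so lowers Wnt reception in the head. Its rlog values were 5.98 and 5.91 in ‘Uninjected’, 4.29 and 4.63 in ‘Mosaic’, and 4.44 and 5.15 in ‘Ubiquitous’ cells. The counts were 29 and 241, 20 and 32, and 40 and 8 in the same order. Both groups with β-catCA lay below ‘Uninjected’ cells without overlap, ‘Ubiquitous’ lot 2 being the nearest at 23.2 against 49.7 and 49.3 counts per 100000. The pooled share was 4.34-fold lower in ‘Mosaic’ (3.21 to 5.96) and 3.90-fold lower in ‘Ubiquitous’ cells (2.86 to 5.43), the latter being 2.13-fold without ‘Ubiquitous’ lot 1. On the rlog scale the differences were −1.48 (SE 0.25) and −1.15 (SE 0.25). The latter had an adjusted p of 0.0596 in limma, and this call was lost in 6 of 15 alternatives. Among these were no filter (adjusted p = 0.967), a mean rlog of at least 4 (0.208) and quantile normalization (0.113). It was also lost without ‘Ubiquitous’ lot 1 (−0.80) or without either ‘Uninjected’ library (−1.12 and −1.18).

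**Figure D2:**
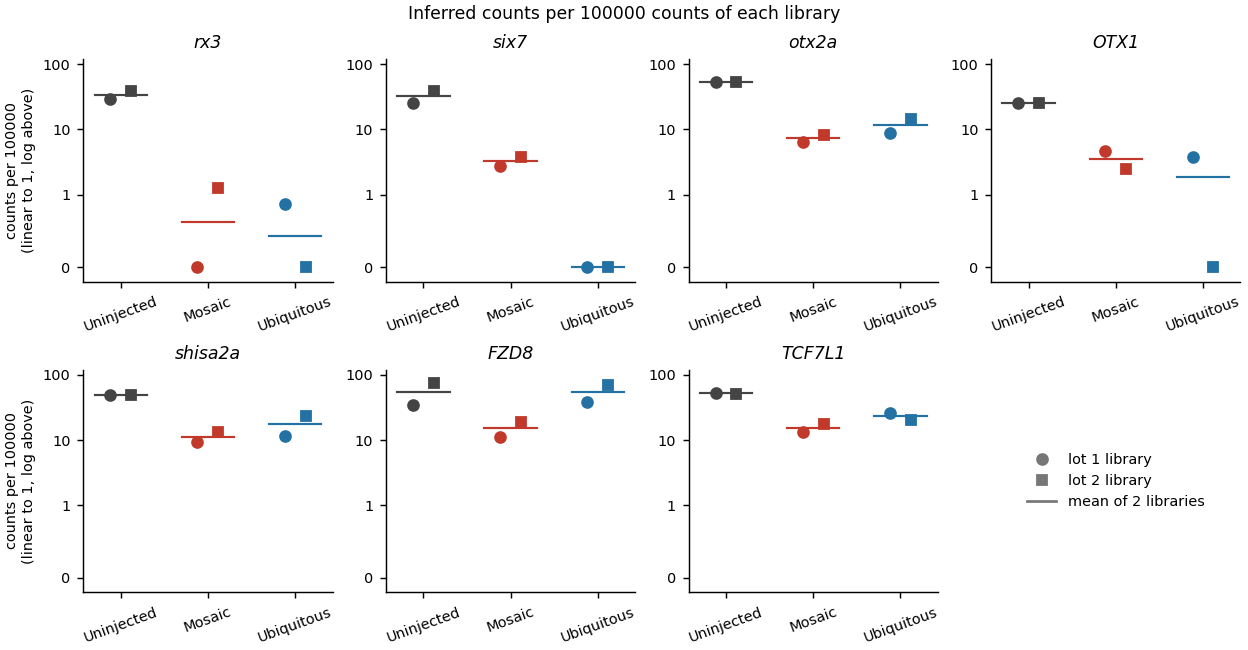
Inferred counts of each gene per 100000 counts of its library (vertical axis, linear up to 1 and logarithmic above), with circles for lot 1, squares for lot 2 and a line at the mean of both. *six7* has no count in ‘Ubiquitous’ cells against 2.76 and 3.75 in ‘Mosaic’ cells, and *FZD8* has 38.2 and 69.5 in ‘Ubiquitous’ against 34.3 and 75.2 in ‘Uninjected’ cells.

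*FZD8* encodes a Frizzled receptor whose zebrafish and *Xenopus* counterparts are expressed in the anterior neural plate. Its rlog values were 5.81 and 6.57 in ‘Uninjected’, 4.64 and 5.17 in ‘Mosaic’, and 5.86 and 6.49 in ‘Ubiquitous’ cells. The ‘Mosaic’ libraries lay below all 4 others, and the ‘Ubiquitous’ values lay inside the range of the ‘Uninjected’ values. The group mean was 6.19 ± 0.54 (SD, n = 2) for ‘Uninjected’ cells, 4.90 ± 0.38 (SD, n = 2) for ‘Mosaic’ cells and 6.17 ± 0.45 (SD, n = 2) for ‘Ubiquitous’ cells. ‘Ubiquitous’ minus ‘Uninjected’ was −0.019 (−0.62 to 0.59), or 0.017 after centring each library on its median, and ‘Mosaic’ minus ‘Ubiquitous’ was −1.27 (−1.88 to −0.67). Without the 2 shallow libraries, which leaves a single library in ‘Ubiquitous’ and in ‘Uninjected’, the former difference was −0.72.

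The inferred counts of *FZD8* were 20 and 368 in ‘Uninjected’, 24 and 46 in ‘Mosaic’, and 132 and 24 in ‘Ubiquitous’ libraries. Per 100000 counts the level was 34.3 and 75.2 in ‘Uninjected’, 11.0 and 19.1 in ‘Mosaic’, and 38.2 and 69.5 in ‘Ubiquitous’ cells. The pooled share was 2.68-fold lower in ‘Mosaic’ than in ‘Ubiquitous’ cells (2.01 to 3.61). Against ‘Uninjected’ cells, it was 4.63-fold lower in ‘Mosaic’ (3.58 to 6.06) and also 1.73-fold lower in ‘Ubiquitous’ cells (1.43 to 2.09). Both values lean on the deep ‘Uninjected’ lot 2, without which they were 2.24-fold lower in ‘Mosaic’ and 0.835 for ‘Uninjected’ over ‘Ubiquitous’, and the rlog difference of −0.91 in ‘Mosaic’ did not pass (adjusted p = 0.238). That call was also lost without ‘Mosaic’ lot 1 (−1.02, adjusted p = 0.374) and with no filter (adjusted p = 0.549). Single ‘Uninjected’ libraries stood at 1.79 to 6.81 times single ‘Mosaic’ libraries and at 0.49 to 1.97 times single ‘Ubiquitous’ libraries. Without ‘Ubiquitous’ lot 1, *FZD8* was 1.02-fold lower in ‘Ubiquitous’ than in ‘Uninjected’ cells and 4.54-fold lower in ‘Mosaic’ than in ‘Ubiquitous’ cells. Whether *FZD8* was lower in ‘Ubiquitous’ cells thus depended on how the libraries were weighted. Its 4 ratios of a ‘Ubiquitous’ to a ‘Mosaic’ library were all at least 1.99. They pair the same 2 libraries a group and restate that these did not overlap. Both ‘Mosaic’ libraries lay below both ‘Ubiquitous’ libraries for 18.5% of all genes tested, and *FZD8* had been selected for this pattern.

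*TCF7L1* encodes the repressing TCF described above. Its rlog values were 6.16 and 6.04 in ‘Uninjected’, 4.72 and 4.99 in ‘Mosaic’, and 5.34 and 5.19 in ‘Ubiquitous’ cells. The counts were 31 and 250, 29 and 42, and 89 and 7 in the same order. The 3 groups did not overlap, with ‘Mosaic’ lowest, ‘Ubiquitous’ next and ‘Uninjected’ highest. The pooled share was 3.31-fold lower in ‘Mosaic’ (2.54 to 4.35) and 2.03-fold lower in ‘Ubiquitous’ (1.61 to 2.59) than in ‘Uninjected’ cells, and 1.63-fold lower in ‘Mosaic’ than in ‘Ubiquitous’ cells (1.19 to 2.24). On the rlog scale, ‘Ubiquitous’ minus ‘Uninjected’ was −0.83 (−1.30 to −0.36) with an adjusted p of 0.25, and ‘Mosaic’ minus ‘Ubiquitous’ was −0.41 (−0.88 to 0.06) with an adjusted p of 0.448. *TCF7L1* passed in ‘Mosaic’ alone, a call that was lost without ‘Mosaic’ lot 1 (−1.11, adjusted p = 0.162) and with no filter (adjusted p = 0.184), and a difference between the groups with β-catCA was not shown on this scale.

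The members were selected on these same comparisons, so the counts that follow describe the choice and support nothing. Between ‘Mosaic’ and ‘Uninjected’ cells, 7 of 7 members passed as lower at an adjusted p under 0.1 in limma's test, where 0.845% of all genes tested did. Between ‘Ubiquitous’ and ‘Uninjected’ cells, 5 of 7 passed as lower, where 0.333% of all genes did. With no filter on low values, 3 and 3 members passed. Lying below both libraries of the ‘Uninjected’ group in both libraries held for 7 members in ‘Mosaic’ and 6 in ‘Ubiquitous’ cells, where it held for 19.9% and 19.6% of all genes tested. The members' median difference was −1.60 in ‘Mosaic’ and −1.57 in ‘Ubiquitous’ cells, beside medians of 0.024 and −0.032 over all genes tested. Both comparisons use the same ‘Uninjected’ libraries.

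The difference between ‘Mosaic’ and ‘Ubiquitous’ cells was compared directly for each gene. Only *FZD8* of the 7 passed as lower in ‘Mosaic’ (adjusted p = 0.0445), where 0.819% of all genes tested did, and it ranked 6 from the lowest of 3905 genes. The gene had been selected for this pattern, and the call was lost without either ‘Mosaic’ library, without ‘Ubiquitous’ lot 2, or with no filter, with adjusted p-values from 0.0168 to 0.572 over the alternatives and differences from −1.60 to −0.95. *FZD8* and *TCF7L1* were the 2 members below both ‘Ubiquitous’ libraries in both ‘Mosaic’ libraries, as 18.5% of all genes tested were. For *rx3*, *otx2a*, *OTX1* and *shisa2a*, the rlog intervals spanned 0, on a scale that draws low counts together. The counts bound these differences less closely. The 95% exact interval of the pooled share in ‘Mosaic’ over that in ‘Ubiquitous’ cells was 0.111 to 6.20 for *rx3*, with 3 counts in each group, 0.461 to 2.31 for *OTX1*, 0.489 to 1.33 for *otx2a* and 0.596 to 1.36 for *shisa2a*. Without ‘Ubiquitous’ lot 1, which leaves 5 counts of *otx2a* and 8 of *shisa2a* in that group, the pooled shares were 1.95-fold and 2.04-fold lower in ‘Mosaic’. The members' median difference was −0.33, beside 0.053 over all genes.

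**Figure D3:**
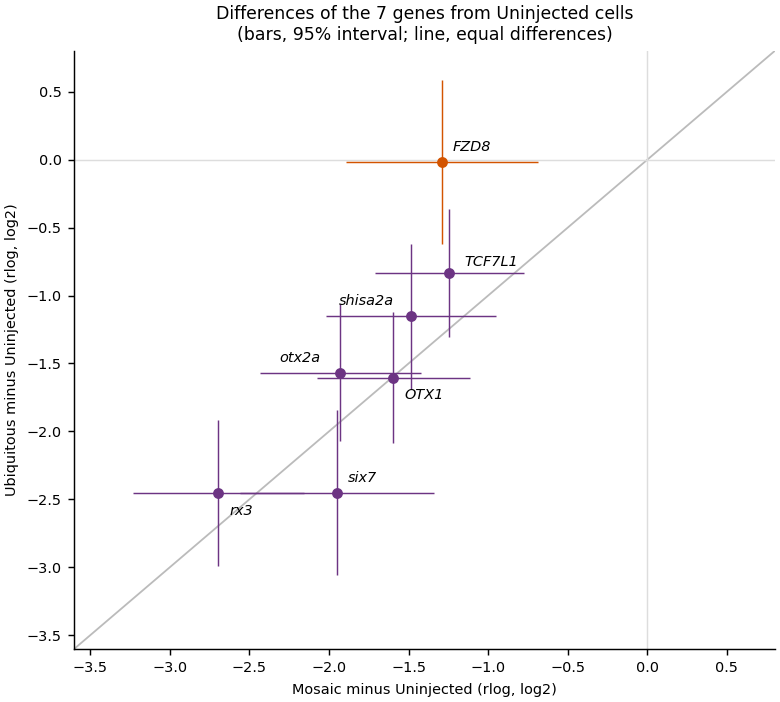
Difference from ‘Uninjected’ cells (rlog, log2) in ‘Mosaic’ cells (horizontal axis) and in ‘Ubiquitous’ cells (vertical axis) for each of the 7 genes, with 95% intervals from the fit over 6 libraries and a line of equal differences. *FZD8* lies at −1.29 and −0.019, away from the line, and the 95% interval of the difference between both groups includes 0 for each other gene.

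The spread between the lots was not the same in each group. From lot 1 to lot 2, 6 of 7 members were higher in ‘Ubiquitous’ cells, by a median of 0.61, and the highest of these differences was 0.98 (*six7*, with no count in either library). In ‘Mosaic’ cells 6 of 7 were also higher in lot 2, by a median of 0.27. In ‘Uninjected’ cells the median was 0.041 and *FZD8* differed by 0.76. The medians over all genes tested were 0.010 in ‘Mosaic’ cells, −0.081 in ‘Ubiquitous’ cells and 0.035 in ‘Uninjected’ cells.

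**Figure D4:**
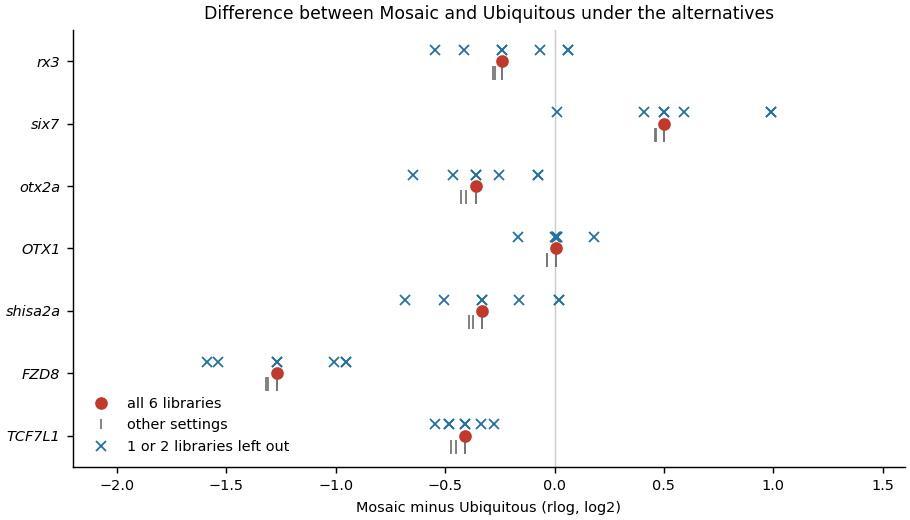
Difference between ‘Mosaic’ and ‘Ubiquitous’ cells (rlog, log2, horizontal axis) for each gene from all 6 libraries (red circle), under other filters, scalings and fits to the rlog values (grey bars; voom, on another scale, is not plotted) and with 1 or 2 libraries left out (blue crosses). *FZD8* stays between −1.59 and −0.95, *six7* runs from 0.011 to 0.99, and *rx3*, *OTX1* and *shisa2a* change sign.

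Other genes of the same pathways were taken from lists. Of 30 anterior neural and eye field transcription factor genes, 6 passed the filter on low values, 4 of them members, and 16 were at 0 in all libraries. The other 2 were a *PAX6* and a *SIX3* gene, regulators of eye and forebrain development, with differences of −0.40 and −0.42 in ‘Mosaic’ and −0.81 and −0.81 in ‘Ubiquitous’ cells, none of which passed in limma on the rlog values. In ‘Ubiquitous’ cells both had an unadjusted p under 0.05, and both passed as lower in limma's voom test on the inferred counts, with adjusted p-values of 0.0786 for *PAX6* and 0.082 for *SIX3*. *PAX6* had 1 and 55 counts in ‘Uninjected’, 10 and 3 in ‘Mosaic’, and 1 and 0 in ‘Ubiquitous’ libraries, and *SIX3* had 2 and 78, 8 and 13, and 7 and 0, so their high ‘Uninjected’ share comes from lot 2. Below the filter, and chosen after their values were seen, *OTX2* had 2 and 38 counts in ‘Uninjected’, 1 and 1 in ‘Mosaic’, and 1 and 0 in ‘Ubiquitous’ libraries. *FEZF2*, a forebrain zinc finger factor, had 0 and 25, 0 and 0, and 1 and 0. The pooled share of *OTX2* was 16.7-fold lower in ‘Mosaic’ (4.33 to 142.7) than in ‘Uninjected’ cells, a value that comes almost wholly from ‘Uninjected’ lot 2. The second *PAX6* gene of the list (ENSDARG00000103379) went the other way, with 5 and 2 counts in the ‘Mosaic’ libraries and 0 in the 4 others. A second *FZD8* gene (ENSDARG00000045444) had 0 and 19, 0 and 1, and 2 and 0 counts, and how reads were divided between the *FZD8* genes was not tested.

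Of 25 genes of Wnt antagonists and repressors, 11 passed the filter, among them *shisa2a*. *SFRP1*, a secreted Frizzled-related protein that binds Wnt ligands, was lower in ‘Mosaic’ cells by 1.01 (adjusted p = 0.0443) and differed by −0.88 in ‘Ubiquitous’ cells, which did not pass. *dkk1b*, a secreted antagonist that blocks the LRP co-receptors and is itself a Wnt target, was higher in both groups, by 1.13 in ‘Mosaic’ and 2.33 in ‘Ubiquitous’ cells, and ‘Mosaic’ lay below ‘Ubiquitous’ (−1.19, adjusted p = 0.034). *NKD1*, an intracellular feedback inhibitor, was higher in ‘Ubiquitous’ cells by 1.50 and differed by 0.73 in ‘Mosaic’ cells, which did not pass. Over all genes tested, 0.538%, 0.154% and 0.512% passed as higher in ‘Mosaic’ against ‘Uninjected’, ‘Ubiquitous’ against ‘Uninjected’ and ‘Mosaic’ against ‘Ubiquitous’ cells. As lower, 0.845%, 0.333% and 0.819% passed in the same order. *AXIN1*, a scaffold of the β-catenin destruction complex, and *tle2a*, a Groucho-type co-repressor of TCF proteins, differed by 0.45 and 0.55 in ‘Mosaic’ and by 0.30 and 0.15 in ‘Ubiquitous’ cells, and none passed. The 10 genes other than *shisa2a* had medians of 0.40 in ‘Mosaic’ and 0.12 in ‘Ubiquitous’ cells.

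Of 20 genes of Wnt receptors and TCF/LEF factors, 10 passed the filter, and none of the 8 that were not members passed in any comparison in limma, nor in voom on the inferred counts. In ‘Mosaic’ against ‘Uninjected’, ‘Ubiquitous’ against ‘Uninjected’ and ‘Mosaic’ against ‘Ubiquitous’ cells, 1, 2 and 2 of them had an unadjusted p under 0.05, as 440, 264 and 506 of all 3905 genes did. *LRP6*, a Wnt co-receptor, differed by 0.23 in ‘Mosaic’ and 0.71 in ‘Ubiquitous’ cells, and the more abundant *FZD7* gene by 0.20 and −0.44. The paralog *tcf7l1b* (ENSDARG00000007369), named for its kinship with *TCF7L1*, differed by −0.51 and −0.57. In voom on the inferred counts these differences were −1.46 and −1.57, beside −1.74 and −1.06 for *TCF7L1*. The median of the 8 genes was 0.21 in ‘Mosaic’ and −0.10 in ‘Ubiquitous’ cells, beside −1.29 and −0.019 for *FZD8*.

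Of 23 posterior neural genes, 10 passed the filter, 3 of which were higher in ‘Mosaic’ than in ‘Uninjected’ cells. They were *hoxb1b*, a hindbrain Hox gene (1.50, adjusted p = 0.00205), *GBX1*, a homeobox gene of the anterior hindbrain in zebrafish (1.12, adjusted p = 0.0219), and *meis2b*, a Hox cofactor (1.41, adjusted p = 0.0703). In ‘Ubiquitous’ cells these differed by 0.34, 0.87 and 0.81, and none of the 10 genes passed in limma or in voom (3 at an unadjusted p under 0.05). In voom, *hoxb1b*, *GBX1* and *meis2b* differed by 2.05, 1.53 and 1.89 in ‘Mosaic’ and by 0.55, 1.30 and 1.57 in ‘Ubiquitous’ cells. The list summed to 147 and 173 counts per 100000 in ‘Uninjected’, 299 and 303 in ‘Mosaic’, and 310 and 156 in ‘Ubiquitous’ cells. Tested directly, *hoxb1b* was higher in ‘Mosaic’ than in ‘Ubiquitous’ cells by 1.16 (adjusted p = 0.034), a call not made by voom (adjusted p = 0.132), and the other 2 did not pass. *cdx4*, a caudal homeobox gene, differed by 0.33 in ‘Mosaic’ and 0.28 in ‘Ubiquitous’ cells without passing. *irx7*, an Iroquois homeobox gene of the midbrain and hindbrain region, differed the other way, by −0.74 in ‘Mosaic’ and −0.17 in ‘Ubiquitous’ cells, and by −0.58 between ‘Mosaic’ and ‘Ubiquitous’, and none of these passed.

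Of 14 early neural plate genes, 10 passed the filter and none passed the test in any comparison in limma or in voom, with 0, 1 and 3 at an unadjusted p under 0.05 in the 3 comparisons. *SOX3* and *SOX2*, which mark neural progenitors, differed by −0.18 and 0.25 in ‘Mosaic’ and by −0.17 and −0.26 in ‘Ubiquitous’ cells. *sox19a* differed by 0.20 and −0.49. The median of the 10 genes was 0.055 in ‘Mosaic’ and −0.15 in ‘Ubiquitous’ cells, with 5 and 9 of them below their ‘Uninjected’ mean. For ‘Mosaic’ minus ‘Ubiquitous’ their median was 0.46, beside 0.053 over all genes tested. Their summed level was lowest in ‘Ubiquitous’ lot 2, at 211 counts per 100000.

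**Figure D5:**
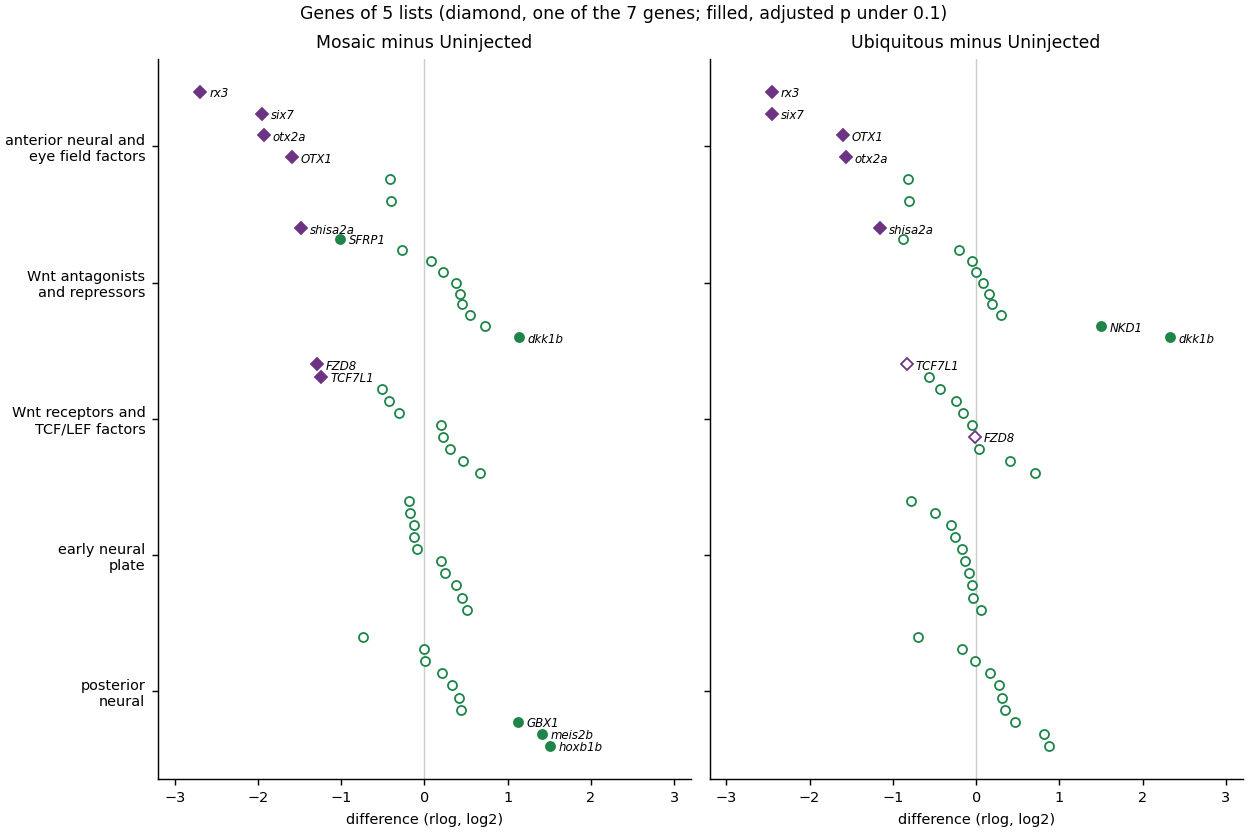
Difference from ‘Uninjected’ cells (rlog, log2, horizontal axes) of the genes of 5 lists that passed the filter, in ‘Mosaic’ cells (left) and ‘Ubiquitous’ cells (right), with diamonds for the 7 genes described here and filled symbols for an adjusted p under 0.1. The members lie at the low end of their lists in ‘Mosaic’ cells, and *FZD8* lies within its list in ‘Ubiquitous’ cells, at −0.019.

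Markers of other cell types differed between the libraries too. Mesoderm genes summed to 411 and 238 counts per 100000 in ‘Uninjected’, 191 and 174 in ‘Mosaic’, and 435 and 469 in ‘Ubiquitous’ cells. Of 11 such genes, 9 passed the filter and both *WNT8A* genes were at 0. *tbxta*, the notochord and tailbud T-box gene, was below its ‘Uninjected’ level in ‘Mosaic’ cells (−1.38), and *tbxta*, *tbx16*, *mixl1* and *aplnrb* were below their ‘Ubiquitous’ level in ‘Mosaic’ cells, with differences from −1.13 (*tbx16*) to −1.50 (*tbxta*), as *FZD8* was. Their part in the *FZD8* difference was not tested.

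Prechordal plate and endoderm genes, 7 of 9 of which passed the filter with none at 0, summed to 219 and 223 counts per 100000 in ‘Uninjected’, 156 and 238 in ‘Mosaic’, and 262 and 203 in ‘Ubiquitous’ cells, and only *foxa3* passed in limma, lower in ‘Mosaic’ cells (−1.30). In voom, *GSC* passed there as well. Enveloping layer genes, 4 of 12 of which passed the filter with *cldnf* at 0, summed to 161 and 337, 260 and 188, and 143 and 98.4. Of these, only *krt8* passed in limma, higher in ‘Mosaic’ than in ‘Ubiquitous’ cells (1.18), and voom also called *krt18a.1* lower in ‘Mosaic’ than in ‘Uninjected’ libraries (adjusted p = 0.0764). Non-neural ectoderm genes, 6 of 8 of which passed the filter with *krt18b* at 0, summed to 87.4 and 132, 104 and 106, and 97.2 and 52.1, and none passed in limma or in voom (1, 2 and 0 at an unadjusted p under 0.05 in the 3 comparisons). Yolk syncytial layer genes, of which only *apoeb* passed the filter and *SLC40A1* and *apoa4b.1* were at 0, summed to between 185 and 259 in every library. Germ cell genes, of which only *DND1* passed the filter with none at 0, summed to 20.6 and 13.1, 0.92 and 1.25, and 5.79 and 5.79, and *DND1* was below its ‘Uninjected’ level in ‘Mosaic’ cells (−1.02). The part of these cell types in the members' differences was not tested.

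Across the 6 libraries, the members' mean centred profile was followed most closely by *rx3* (Pearson r = 0.996) and *otx2a* (0.995), and least by *FZD8* (0.646), each of which is part of that mean. Outside the members, the genes most like it among all those tested were *zgc:174154* (r = 0.995), *si:dkey-269i1.4* (0.98), *zgc:174855* (0.974), *ctslb* (0.974) and *zgc:174153* (0.973). *ctslb*, a cathepsin L gene known from the hatching gland, had 13 and 87 counts in ‘Uninjected’, 2 and 2 in ‘Mosaic’, and 0 and 1 in ‘Ubiquitous’ libraries. These values of r describe 6 libraries in 3 groups, share each library's depth, and follow mainly the step between ‘Uninjected’ cells and the rest. In total, 13 of 3905 genes passed as lower in both ‘Mosaic’ and ‘Ubiquitous’ cells than in the shared ‘Uninjected’ libraries. They were all the genes (0.333%) that passed as lower in ‘Ubiquitous’ cells. The 5 members among them had been selected on these comparisons, and the 5 genes most like the members' mean profile were among them too.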

How the data were processed

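Gene expression was measured by RNA-Seq with CEL-Seq2, which tags the 3′ end of transcripts and marks each molecule, in 6 libraries of sorted zebrafish cells. Per the study's methods and processing notes, reads were aligned to GRCz10 with Bowtie2 (version 2.3.1) and assigned to genes with HTSeq (version 0.6.1), duplicate molecules being discarded. The values the authors deposited are rlog values on the log2 scale, which were used as given. Reads were not processed again.

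Differences between the 3 groups were fitted in limma (R 4.3.3, limma 3.58.1) to the log2 values of all 6 libraries, letting the prior variance follow expression level. The 3905 genes whose mean rlog reached 2 were tested, with Benjamini-Hochberg adjustment over all of them, and a gene passed at an adjusted p under 0.1. Of the 32266 genes, 18134 were at 0 in all libraries. Scripts were tested on simulated data. Counts were inferred by inverting the rlog transformation in Python (version 3.11.15), were not taken from the authors, and returned the deposited value within 0.001 in every library for 14119 of 14132 genes. A count of 0 allows up to 3 counts, and intervals of count ratios are exact at 95% and cover counting error only.

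Members and lists were chosen with earlier results of these data known. Genes named are the 7 members, *CTNNB1*, genes of the 5 pathway lists that passed in a comparison or were among the 4 with the highest mean rlog in their list, for lists of other cell types the 2 highest (here given mainly as sums), and the 5 genes most like the members' mean profile. A gene that this rule names is not reported here. Others were chosen after their values were seen. The lists were matched on the symbol, next on the symbol without the paralog letter, then by synonym from a table of GRCz12tu, an order set after values were seen because synonyms had matched other genes. Symbols were given for 26433 genes. The alternatives were other filters, scalings and fits, the lot number as a block, voom on the inferred counts, each library left out and the 2 shallowest left out. Crossed lots were added after seeing the data. Sequences and coordinates were not used here.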

Additional observations from a re-analysis of the deposited data

Results flagged for a closer look

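The *FZD8* gene stood apart because its difference from ‘Uninjected’ cells was not the same in the groups with β-catCA. Tested directly in limma, ‘Mosaic’ was lower than ‘Ubiquitous’ by 1.27 on the rlog scale (−1.27, adjusted p = 0.0445), with both ‘Mosaic’ libraries below both ‘Ubiquitous’ libraries. The gene had been selected on these values, and the test was lost in 4 of 15 alternatives. These were no filter and the fits without either ‘Mosaic’ library or without ‘Ubiquitous’ lot 2. The 15 include fits without an ‘Uninjected’ library, which cannot change this difference.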

How the results depend on the processing

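The counts depended on the filter on low values, on the 2 shallow libraries, on each ‘Mosaic’ library and on how the lots were blocked. Unfiltered, 6, 7 and 0 genes passed in ‘Mosaic’ against ‘Uninjected’, ‘Ubiquitous’ against ‘Uninjected’ and ‘Mosaic’ against ‘Ubiquitous’ (54, 19 and 52 as reported), with an unadjusted limma p under 0.05 for 795, 468 and 950 of 14132 genes, and 3, 3 and 0 members passed. With a mean rlog of at least 4, 18, 5 and 24 genes passed, and 4 and 1 members in the first 2 comparisons, where only 4 members could be tested. Without the 2 shallowest libraries, 142, 54 and 159 genes passed, and 2 members between ‘Mosaic’ and ‘Ubiquitous’ (*FZD8* and *six7*). The voom fit gave 67, 27 and 51 genes and 7, 5 and 1 members. With single libraries left out, in fits that assume the lone library of a group varies like the others, 25 to 64, 14 to 25 and 2 to 67 genes passed, and 5 to 7, 4 to 5 and 0 to 1 members. The fewest calls between ‘Mosaic’ and ‘Ubiquitous’ came without ‘Mosaic’ lot 1 or lot 2 (2 genes each) and without ‘Ubiquitous’ lot 2 (10), and those between ‘Mosaic’ and ‘Uninjected’ without ‘Mosaic’ lot 1 (28) or lot 2 (25). In ‘Mosaic’ against ‘Uninjected’ cells, *FZD8* did not pass without ‘Mosaic’ lot 1 or without ‘Uninjected’ lot 2 (−0.91), nor *TCF7L1* without ‘Mosaic’ lot 1. *FZD8* in ‘Ubiquitous’ cells changed sign with median centring (0.017) and ran from −0.40 to 0.36 with single libraries left out. Without the 2 shallowest libraries it was −0.72. Between ‘Mosaic’ and ‘Ubiquitous’, *OTX1* changed sign with quantile normalization (−0.032) and median centring (−0.034) and ran from −0.17 to 0.18, *rx3* was 0.063 and *shisa2a* 0.021 without the 2 shallowest libraries, and with libraries left out they ran from −0.54 to 0.063 and from −0.69 to 0.021. The causes were not tested. With the lot number as a replicate block, 57, 23 and 50 genes and 7, 5 and 1 members passed, and deviations of same-numbered lots correlated at −0.059, −0.12 and −0.039, so the lots were not taken as pairs. With the lots crossed as a replicate block, 177 genes passed between ‘Mosaic’ and ‘Uninjected’. Depth limits the low genes, *rx3* and *six7* above all, in ‘Ubiquitous’ lot 2.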
